A study of Mus musculus with 56 samples.

Results

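The PD1- subset of OVA:Kb-specific CD8 T cells (TFGS) was compared between sensitized and naive mothers after semi-allogeneic pregnancy. S+P C4 are the PD1- TFGS of C57BL/6 females that had rejected an allogeneic skin graft from 2W-OVA.BALB/c donors and were then mated with 2W-OVA.BALB/c males. N+P C1 are the PD1- TFGS of C57BL/6 females with the same pregnancy and no graft. Members were taken by their labels, 6 S+P C4 and 3 N+P C1 samples of the 30 samples of the series. Each numbered replicate was taken as the pooled spleen and lymph nodes of 1 mouse. The 6 S+P C4 replicates are more than the study's legend gives for any group. Both groups were sorted with OVA:H-2Kb tetramers as PD1- cells, with the same gate, so that C1 (naive-like) and C4 (sensitized-like), the study's flow cytometry clusters, are names for the PD1- cells of each kind of mother and not for a further sort. The tetramer finds T cells of 1 specificity only, for a model antigen carried by the graft and inherited from the father. The question is what distinguishes PD1- TFGS after pregnancy according to whether the mother had memory to the same antigen beforehand.

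Naive CD8 T cells circulate through lymph nodes with CCR7 and are held in quiescence by transcription factors such as TCF1 and SATB1. After they meet antigen, their progeny gain integrins, cytotoxic granules, chemokines and receptors first described on NK cells, and memory cells keep part of this program after the antigen is gone. PD-1 (Pdcd1) is an inhibitory receptor that activated and chronically stimulated T cells display, so a PD1- gate holds both cells that never met antigen and memory cells at rest.

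Each library was made with SmartSeq2 from 200 sorted cells, and the technical libraries of a mouse were summed, which gave 15 libraries in use here of 56 in the series. Samples held 28835448 to 39570779 counts in N+P C1 and 15547934 to 38726210 in S+P C4. S+P C4 replicates 1, 2 and 3 rest on 1 library each. For replicate 1 a second library held the same counts as a Naive library and was left out of both groups. The labels do not say in which of the study's sorts a mouse was processed. S+P C4 replicates 2 and 3 stood apart, with 8002 and 7436 genes that had at least 1 count, against 12383 to 17398 in the other S+P C4 and 16036 to 17083 in the N+P C1 mice. The mean number of detected genes did not differ beyond this spread in an exact permutation test (two-sided, 12848 ± 4307, SD, n = 6, in S+P C4 and 16422 ± 575, n = 3, in N+P C1, p = 0.262, where the smallest possible p is 0.0238). The first principal component of the 9 samples, with 74.7% of the variance of the 500 most variable genes, parted these 2 mice from the other 7. Mitochondrial transcripts took 24.3% of the counts of replicate 3 and 7.78% of those of replicate 2, against 2.04% to 4.26% in the other S+P C4 and 3.45% to 9.57% in the N+P C1 mice. The comparison is therefore given with all 6 S+P C4 mice and with replicates 1, 4, 5 and 6 only.

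**Figure D1:**
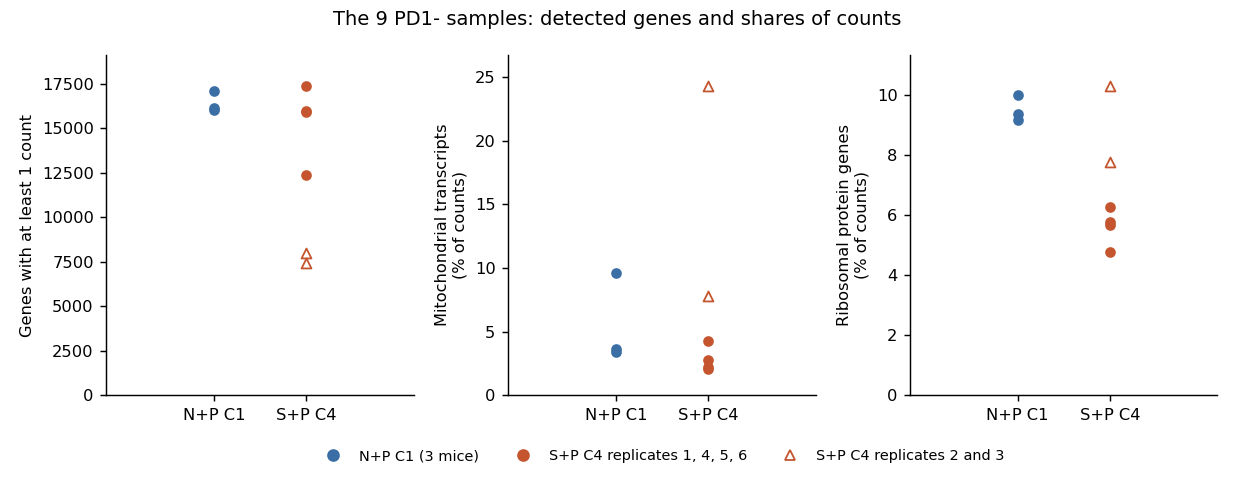
Number of genes with at least 1 count, mitochondrial share and ribosomal protein share of counts (y axes) in the 3 N+P C1 and 6 S+P C4 samples (points, 1 per mouse). Triangles mark S+P C4 replicates 2 and 3, which have the fewest detected genes, 8002 and 7436, and the highest mitochondrial and ribosomal protein shares of their group.

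The samples carried the transcripts of CD8 T cells. Cd8a had 968, 952 and 814 CPM (TMM-normalized counts scaled to a common library size) in the N+P C1 and 567 to 1579.5 CPM in the S+P C4 mice, and Trac, the T cell receptor alpha constant gene, had 782 to 1099.9 and 758 to 1690.2 CPM. Of 20 genes of CD8 T cell identity (CD3, CD8, proximal signalling and costimulation), 0 passed the thresholds given in the next paragraph in edgeR, DESeq2 or limma, 1 had an unadjusted p under 0.05 in edgeR, and their median log2 fold change was 0.26. Markers of other cells were not uniformly absent. Ms4a1, Cd14 and Adgre1 had 0 counts in all 9 samples. The summed level of 14 myeloid markers was 4.08 to 28.2 CPM in N+P C1 and 1.29 to 78.96 CPM in S+P C4, and that of 8 erythroid markers was 0.861 to 2.54 and 0.0521 to 469.7 CPM, with the highest values in S+P C4 replicates 3 and 1. The B cell markers summed to 724 to 820.0 CPM in N+P C1 and 1.25 to 485 CPM in S+P C4, mostly Ighm (232.8, 1.198, 139.6, 100.2, 344 and 451 CPM in S+P C4 replicates 1 to 6), with no overlap between the groups. Of the 7 B cell markers tested, 0 passed in edgeR or DESeq2, 0 had an unadjusted p under 0.05 in edgeR, and limma passed 2 as lower. MHC class II markers summed to 43.5 to 128 CPM in N+P C1 and 15.1 to 59.4 CPM in S+P C4, and markers of CD4 and regulatory T cells to 48.9 to 62.4 and 0.199 to 74.3 CPM, with Cd4 at 0 in 8 of the 9 samples. The NK and innate markers are given beside the NK receptors. The part of these levels in the results was not tested.

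With all 6 S+P C4 mice, 12 of 19657 genes (0.0610%) passed both thresholds of the edgeR quasi-likelihood test, which were an adjusted p (Benjamini-Hochberg over all genes tested) under 0.1 and a log2 fold change of more than 0.9 in either direction. Of these, 11 rose in S+P C4 (0.0560% of the genes tested) and 1 fell (0.00509%). The 11 genes that rose encode an activating receptor (Klrk1), a granule protein (Nkg7), a chemokine (Ccl5), 2 S100 calcium-binding proteins (S100a6, S100a10), a galectin (Lgals1), a large scaffold protein (Ahnak), 2 integrin chains (Itgb1, Itgal), a transcriptional inhibitor (Id2) and a lipid-binding protein (Osbpl3). Their levels overlapped with N+P C1 only for Itgb1, through S+P C4 replicate 3. Klrk1, Osbpl3, Nkg7, S100a6 and Ccl5 passed in all 9 fits that each left out 1 mouse. Over all 22 alternative settings, these 9 fits included, Nkg7 lost the call in 3 and Osbpl3, S100a6 and Ccl5 in 2 each. Klrk1 kept it in all 22. Without N+P C1 replicate 1, 2 or 3, Id2, Itgb1, Itgal and S100a10 lost the call (adjusted p between 0.204 and 0.592), as Ahnak did without N+P C1 replicate 1 or 2 (0.1077 and 0.226) and Lgals1 without replicate 2 (0.146). Itgal lost it also without S+P C4 replicate 1 or 4 (0.12 and 0.157) and S100a10 without S+P C4 replicate 4 (0.1095). Among all genes tested, 0.499% lay above and 2.79% lay below N+P C1 in every S+P C4 mouse, and 3.08% and 6.15% were higher and lower at an unadjusted p under 0.05. In these bulk samples more cells with a transcript and more transcript per cell cannot be told apart.

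Without S+P C4 replicates 2 and 3, 48 of 19602 genes (0.245%) passed, 44 higher (0.224%) and 4 lower (0.0204%), and all 12 genes named above were among them. In the 4 against 3 mice, 4.00% of all genes tested lay above and 4.84% below N+P C1 in every S+P C4 mouse, and 3.74% and 4.76% had an unadjusted p under 0.05 in each direction. These shares, and those of the fit with all mice, are the background for the counts of each gene list below. DESeq2 on the same samples passed 1040 genes with all mice (693 higher) and 1194 without the 2 replicates (761 higher), and limma with sample quality weights passed 825 (333 higher) and 783 (360 higher). The larger counts of DESeq2 held all 12 and all 48 genes, and those of limma held 10 of the 12 and 42 of the 48.

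**Figure D2:**
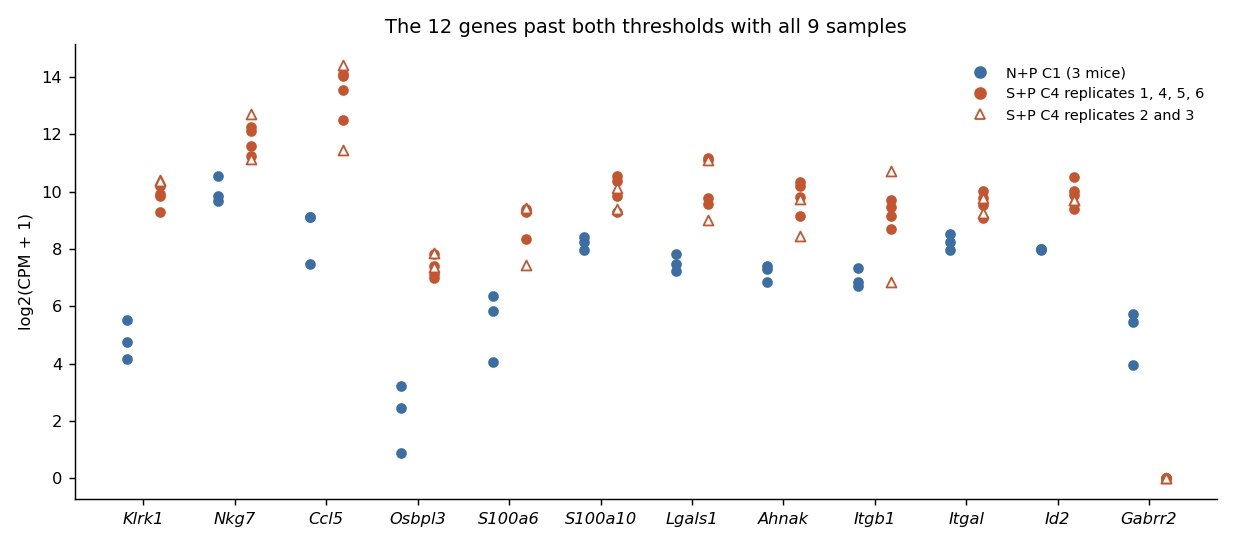
Level of the 12 genes past both thresholds with all 9 samples, as log2(CPM + 1) on the y axis, in N+P C1 (blue) and S+P C4 (orange, triangles for replicates 2 and 3), 1 point per mouse. Every gene is separated between the groups except Itgb1, where replicate 3 has 115 CPM, and Gabrr2 is at 0 in all 6 S+P C4 mice.

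The gene with the smallest p was Klrk1 (chr6:129587286-129600827 on the minus strand of GRCm39), which encodes NKG2D, an activating receptor for stress-induced ligands. It had 26.03, 16.8 and 44.5 CPM in the 3 N+P C1 mice, 1169.7, 916, 974 and 619.5 CPM in S+P C4 replicates 1, 4, 5 and 6, and 1368 and 1319 CPM in replicates 2 and 3. All 6 S+P C4 mice lay far above the 3 N+P C1 mice, and the 2 mice with few detected genes were the highest in TMM-normalized CPM. This order depends on the scaling. The TMM factors of replicates 2 and 3, 0.761 and 0.649, were the lowest of both groups, which raises their normalized levels. The log2 fold change was 5.19 ± 0.59 (SE, adjusted p = 1.15e-05) with all mice and 4.98 ± 0.59 (SE, adjusted p = 6.29e-05) without replicates 2 and 3.

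Promoters of 4 of the 11 genes that rose are shown, since each holds letters of a motif of transcription factors of T cells. Promoters (250 bases before to 50 after the start, RefSeq, GRCm38.p6) were found for 7 of the 11, and each sequence shown occurs once in GRCm39. Capitals mark RUNX letters (TGTGGTT, in 5.27% of all 32851 promoters on either strand) 129 bases before the start of Klrk1 and 79 bases before that of S100a6, AP-1 letters (TGACTCA, 5.2%) 18 bases after the start of Klrk1, KLF letters (CCACACC, 7.58%) 191 bases before that of Osbpl3, and T-box letters (TCACACC, 3.98%, here on the other strand) 13 bases before that of Nkg7. The T-box and KLF motifs share most of their letters. Of the 7 promoters, RUNX letters were in 2, AP-1, KLF and T-box letters in 1 each and TCF/LEF letters (CTTTGAA, 5.14% of all promoters) in 0. The genes higher without replicates 2 and 3 had 38 promoters. Of these, RUNX letters were in 2, TCF/LEF letters in 3, T-box letters in 4, KLF letters in 4 and AP-1 letters in 6. A match describes the letters only.
Klrk1, chr6:129600778-129601077 (GRCm39, minus strand): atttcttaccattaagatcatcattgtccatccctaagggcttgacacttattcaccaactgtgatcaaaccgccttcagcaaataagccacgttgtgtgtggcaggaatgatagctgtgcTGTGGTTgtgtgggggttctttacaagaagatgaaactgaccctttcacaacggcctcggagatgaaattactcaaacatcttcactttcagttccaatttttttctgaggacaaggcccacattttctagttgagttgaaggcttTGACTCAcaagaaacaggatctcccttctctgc
S100a6, chr3:90519951-90520250 (GRCm39, plus strand): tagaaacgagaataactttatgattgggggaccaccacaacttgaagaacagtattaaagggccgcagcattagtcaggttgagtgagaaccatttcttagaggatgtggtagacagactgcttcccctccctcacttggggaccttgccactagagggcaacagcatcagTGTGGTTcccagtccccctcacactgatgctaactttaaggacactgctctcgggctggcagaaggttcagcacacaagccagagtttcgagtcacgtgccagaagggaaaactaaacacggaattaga
Osbpl3, chr6:50433101-50433400 (GRCm39, minus strand): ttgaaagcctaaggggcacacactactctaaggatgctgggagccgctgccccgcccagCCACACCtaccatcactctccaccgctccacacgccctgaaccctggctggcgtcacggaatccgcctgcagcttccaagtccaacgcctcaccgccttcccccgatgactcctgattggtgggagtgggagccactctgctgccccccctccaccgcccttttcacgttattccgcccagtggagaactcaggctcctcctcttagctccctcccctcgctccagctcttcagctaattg
Nkg7, chr7:43086312-43086611 (GRCm39, plus strand): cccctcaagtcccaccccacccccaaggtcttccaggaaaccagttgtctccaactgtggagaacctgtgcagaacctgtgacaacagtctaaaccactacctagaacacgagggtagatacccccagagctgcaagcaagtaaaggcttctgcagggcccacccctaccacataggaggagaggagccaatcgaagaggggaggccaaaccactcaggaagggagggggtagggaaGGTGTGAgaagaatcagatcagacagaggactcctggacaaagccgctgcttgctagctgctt

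Klrk1 led a group of 17 NK lectin receptor genes, the C-type lectins of the NK gene complex, which tune NK and memory CD8 T cells. Of the 17, 1 passed in edgeR and 8 were higher and 1 lower at an unadjusted p under 0.05, with a median log2 fold change of 3.01 against -0.04 over all genes tested. Their summed level was 257 to 371 CPM in N+P C1 and 1952 to 3877 CPM in S+P C4. DESeq2 passed 7 and limma 10 of the 17 with all mice, all higher. Klrc1, which encodes the inhibitory receptor NKG2A, had 56.7, 18.04 and 7.695 CPM in N+P C1 and 1181, 797, 888 and 452 CPM in S+P C4 replicates 1, 4, 5 and 6, with 1326 and 739 CPM in replicates 2 and 3. Although its groups did not overlap, it missed the threshold with a log2 fold change of 5.03 ± 1.26 (SE, adjusted p = 0.271). Klre1 had 399 and 0.893 CPM in S+P C4 replicates 2 and 3, and with all mice its adjusted p was 0.443. It had 1.04 to 10.5 CPM in N+P C1 and 175 to 455 CPM in S+P C4 without replicates 2 and 3, 5.800 ± 1.502 (SE, adjusted p = 0.166) on the log2 scale. Klri2 had 2 counts over the 3 N+P C1 mice, 10.4 to 124 CPM in the same 4 mice, and 81.87 and 0.09925 CPM in replicates 2 and 3. With all 6 mice the ratio of its group means was 2945 with a 95% counting interval of 815 to 24315, and its adjusted p was 0.443. Such an interval covers counting error alone, because reads were amplified and hold no molecular identifiers. Counts of the Klra, Klrc and Klri members are uncertain, since these genes have close copies and the authors kept uniquely mapping reads only.

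Markers of NK and innate cells had their highest summed level, Nkg7 aside, in the same 4 S+P C4 mice. The 8 markers summed to 828 to 1482 CPM in N+P C1 and 2265 to 6732 CPM in S+P C4, mostly Nkg7, which memory CD8 T cells express too. Without Nkg7 the sum was 1.476, 21.6 and 1.177 CPM in N+P C1, 81.3, 106.7, 80.02 and 35.8 CPM in S+P C4 replicates 1, 4, 5 and 6, and 0.833 and 1.79 CPM in replicates 2 and 3. Klrb1c, which encodes NK1.1, made up most of it in those 4 mice, with 1.11, 1.04 and 0 CPM in N+P C1, 50.8, 90.7, 61.7 and 27.5 CPM in the 4 mice and 0.833 and 0.199 CPM in replicates 2 and 3, 5.74 ± 2.26 (SE, adjusted p = 0.448) with all mice and 6.34 ± 2.09 (SE, adjusted p = 0.466) without the 2. Ncr1, the defining NK receptor NKp46, was at 0 in 6 of the 9 samples and at most 6.03 CPM in the others. Of the 7 markers tested, Nkg7 passed and 3 were higher and 0 lower at an unadjusted p under 0.05, with a median log2 fold change of 1.9 with all mice and 2.37 without the 2. The part of these markers in the NK receptor levels was not tested.

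Genes of cytotoxic granules and death ligands rose in part. Nkg7 (chr7:43086497-43087678), a membrane protein needed for granule release, had 1480.1, 806 and 915 CPM in N+P C1 and 4489.8, 4874, 3059 and 2436 CPM in S+P C4 replicates 1, 4, 5 and 6, with 6731 and 2264 CPM in replicates 2 and 3. Its transcripts were abundant in both groups and did not overlap, with a log2 fold change of 1.898 ± 0.29 (SE, adjusted p = 0.00167). Of 18 genes of this group it alone passed in edgeR with all mice, while 8 were higher and 0 lower at an unadjusted p under 0.05. DESeq2 then passed 7 and limma 5 of the 18, all higher. Without replicates 2 and 3, 5 passed in edgeR, and the median log2 fold change of the 18 was 1.68 against 0.00 over all genes. The 4 others were Gzmk (granzyme K), Prf1 (perforin), Serpinb9 (an inhibitor that protects the cell from granzyme B) and Cst7 (cystatin F, an inhibitor of granule cathepsins). Gzmk had 13.4, 0.0348 and 17.9 CPM in N+P C1, 658, 446, 276 and 246 CPM in S+P C4 replicates 1, 4, 5 and 6, and 765 and 1.09 CPM in replicates 2 and 3. Replicate 2 was the highest of all and replicate 3 fell among the N+P C1 mice. The log2 fold change of Gzmk was 5.27 ± 0.97 (SE, adjusted p = 0.00845) without the 2 mice and 5.25 ± 1.25 (SE, adjusted p = 0.177) with them. Prf1 had 110.3, 95.5 and 69.8 CPM in N+P C1, 790.1, 544, 336 and 217 CPM in the 4 S+P C4 mice and 126 and 91.5 CPM in replicates 2 and 3, 2.36 ± 0.50 (SE, adjusted p = 0.0372) without these 2. Serpinb9 rose by 2.69 ± 0.61 (adjusted p = 0.0651) and Cst7 by 1.11 ± 0.22 (adjusted p = 0.018) on the log2 scale in the 4 against 3 mice. Replicate 2 had 314 CPM of Serpinb9 and 331 CPM of Cst7, above every N+P C1 mouse. Replicate 3 had 0.0993 and 1.09 CPM, below every N+P C1 mouse. With all mice the adjusted p was 0.443 for Prf1, 0.443 for Serpinb9 and 0.84 for Cst7.

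Ccl5 (chr11:83416602-83425942) encodes RANTES, a chemokine that memory CD8 T cells keep ready in stored form. It had 554, 175 and 549.6 CPM in N+P C1, 17469.8, 16683, 11878 and 5775 CPM in S+P C4 replicates 1, 4, 5 and 6, and 22078 and 2775 CPM in replicates 2 and 3. Even the lowest S+P C4 mouse, replicate 3, was above the highest N+P C1 mouse, and the log2 fold change was 4.91 ± 0.76 (SE, adjusted p = 0.00283). Of 19 chemokine and chemokine receptor genes, 1 passed in edgeR with all mice and 3 without replicates 2 and 3. With all mice DESeq2 passed 8 and limma 6 of them, all higher. In edgeR without the 2 replicates, 12 of the 19 were higher and 0 lower at an unadjusted p under 0.05. The median log2 fold change was then 3.24 (3.09 with the gene at 0 counts in 1 group set to its bound). Ccl4, the macrophage inflammatory protein 1 beta, had 49.4, 50.2 and 38.9 CPM in N+P C1 and 800.1, 1530.0, 726 and 81.6 CPM in the 4 S+P C4 mice, 4.09 ± 0.88 (SE, adjusted p = 0.0419). S1pr5, a sphingosine phosphate receptor of circulating effector cells, had 0.331, 1.08 and 0.718 CPM in N+P C1 and 564, 457, 192 and 132 CPM in the same mice, 8.87 ± 2.06 (SE, adjusted p = 0.0858). Of the 2 mice left out, replicate 2 had 830.2 CPM of Ccl4 and 28.1 CPM of S1pr5, and replicate 3 had 2.08 and 0.298 CPM. With all mice the adjusted p was 0.44 for Ccl4 and 0.374 for S1pr5. Cxcl10, a chemokine induced by interferon, had 1 count over the N+P C1 mice and from 0 to 96.8 CPM between S+P C4 mice, with 2 of the 6 at 0.

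Genes of adhesion and of the S100 and annexin families, which antigen-experienced T cells carry at higher levels, gave more of the genes that passed in edgeR than any other list. Of 27 genes, 6 passed in edgeR with all mice and 9 without replicates 2 and 3. With all mice 18 were higher and 0 lower at an unadjusted p under 0.05, and the median log2 fold change was 1.59. DESeq2 then passed 16 as higher, and limma passed 13 as higher and 1 as lower. S100a6 (chr3:90520140-90535843), a calcium-binding protein, had 81.9, 15.4 and 55.96 CPM in N+P C1, 677, 641, 622 and 322 CPM in S+P C4 replicates 1, 4, 5 and 6, and 687 and 172 CPM in replicates 2 and 3. The groups did not overlap, with replicate 3 again the lowest S+P C4 mouse, and the log2 fold change was 3.35 ± 0.54 (SE, adjusted p = 0.00282). Its relative S100a10, a partner of annexin A2 at the membrane, had 345, 301 and 246 CPM in N+P C1 and 622 to 1497 CPM in the 6 S+P C4 mice, 1.79 ± 0.36 (SE, adjusted p = 0.0455). Lgals1, which encodes galectin 1, had 224, 151 and 175 CPM in N+P C1, 2317, 2185, 869 and 758 CPM in the 4 S+P C4 mice and 2200.0 and 512 CPM in replicates 2 and 3, 3.01 ± 0.51 (SE, adjusted p = 0.00399). Replicates 1, 2 and 4 had the highest levels, and the other S+P C4 mice still lay above every N+P C1 mouse.

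Ahnak, a very large scaffold protein at the membrane of lymphocytes, had 157, 114 and 168 CPM in N+P C1, 901, 1296, 1162 and 562 CPM in S+P C4 replicates 1, 4, 5 and 6, and 851 and 346 CPM in replicates 2 and 3, 2.54 ± 0.43 (SE, adjusted p = 0.00399). Itgb1, the beta 1 integrin chain that pairs in VLA-4, had 114, 105 and 162 CPM in N+P C1, 702, 839.7, 569.5 and 417 CPM in the 4 S+P C4 mice and 1671 and 115 CPM in replicates 2 and 3. Replicate 2 had the highest and replicate 3 the lowest level among the S+P C4 mice, the latter within the range of N+P C1. Its log2 fold change was 2.503 ± 0.49 (SE, adjusted p = 0.0349) with all mice and 2.31 ± 0.32 (SE, adjusted p = 3.11e-04) without the 2. Itgal, the alpha chain of LFA-1, had 252, 305 and 370.4 CPM in N+P C1 and 547 to 1031 CPM in the 6 S+P C4 mice, 1.34 ± 0.28 (SE, adjusted p = 0.069), a call that held in 4 of the 9 fits that each left out 1 mouse.

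Without replicates 2 and 3, Itgb2 (the beta chain of LFA-1), Itgax (CD11c, the alpha chain of another integrin) and Anxa2 (annexin A2) also passed. Itgb2 had 350.0, 364 and 241 CPM in N+P C1 and 1385, 1107, 712 and 582 CPM in the 4 S+P C4 mice, 1.57 ± 0.32 (SE, adjusted p = 0.0223). Its level was 796 and 580 CPM in replicates 2 and 3, and with all mice its adjusted p was 0.17. Itgax had 1 count over the 3 N+P C1 mice, 76.2, 60.4, 52.7 and 12.6 CPM in the 4 S+P C4 mice and 0 in replicates 2 and 3, with an adjusted p of 0.00189 without these and 0.17 with them. The ratio of group means over all 9 mice was 3254 with a 95% counting interval of 584 to 128526. Cd44, the adhesion receptor by which antigen-experienced T cells are usually gated, had 41.7, 50.02 and 54.6 CPM in N+P C1 and 141 to 293 CPM in S+P C4. Its groups did not overlap, but it missed the threshold in both fits, with a log2 fold change of 2.09 ± 0.48 (SE, adjusted p = 0.142) and 1.79 ± 0.43 (SE, adjusted p = 0.108). The oxysterol-binding protein gene Osbpl3 belonged to no list and had the second smallest p. It had 8.25, 4.49 and 0.861 CPM in N+P C1, 168, 224, 124 and 138 CPM in S+P C4 replicates 1, 4, 5 and 6, and 165 and 232 CPM in replicates 2 and 3, 5.27 ± 0.76 (SE, adjusted p = 7.99e-04).

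Among 26 tested transcription factors of effector and memory T cells, Id2, an inhibitor of E proteins, passed in edgeR with all mice. Id2 had 257, 247 and 252 CPM in N+P C1, 1451, 1046, 939 and 673 CPM in S+P C4 replicates 1, 4, 5 and 6, and 844 and 843 CPM in replicates 2 and 3. The 3 N+P C1 mice were nearly level and all 6 S+P C4 mice lay above them, 1.94 ± 0.37 (SE, adjusted p = 0.0264). Tbx21 (T-bet) and Ikzf3 (Aiolos) passed without replicates 2 and 3. Tbx21 had 26.6, 3.797 and 6.37 CPM in N+P C1, 326, 386, 209.9 and 124 CPM in the 4 S+P C4 mice and 10.1 and 0.0993 CPM in replicates 2 and 3, which lay within or below the N+P C1 range. Its log2 fold change was 4.43 ± 0.81 (SE, adjusted p = 0.00845) without and 3.84 ± 1.22 (SE, adjusted p = 0.443) with these 2 mice. Ikzf3 had 95.95, 66.2 and 104 CPM in N+P C1 and 319, 399.5, 376 and 184 CPM in the 4 S+P C4 mice, 1.85 ± 0.32 (SE, adjusted p = 0.00357). Replicates 2 and 3 had 71.45 and 164 CPM of Ikzf3, the former within the N+P C1 range, and with all mice its adjusted p was 0.44. Bhlhe40, a repressor of IL-10 in T cells, had 22.3, 31.98 and 4.97 CPM in N+P C1 and 539, 717, 380.1 and 99.99 CPM in the 4 S+P C4 mice, with an adjusted p of 0.338. Replicates 2 and 3 had 35.8 and 22.2 CPM of it, the latter within the N+P C1 range, and with all mice its adjusted p was 0.443. The median log2 fold change of the 26 was 1.25 with all mice and 1.06 without the 2. With all mice DESeq2 passed 7 of them as higher, and limma passed 7 as higher and 1 as lower.

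The 22 genes of naive quiescence and homing had a median below 0 in both fits, and 1 of them passed. With all mice 0 of the 22 passed in edgeR, 4 were lower and 0 higher at an unadjusted p under 0.05, DESeq2 passed 2 and limma with sample quality weights passed 15, all lower, and the median log2 fold change was -1.15. Without replicates 2 and 3, 1 passed in edgeR, 12 had an unadjusted p under 0.05 and 15 lay below N+P C1 in all 4 mice, and the median was -1.66. Over all genes tested, 6.15% were lower at that p with all mice. Without the 2 replicates 4.76% were lower at that p and 4.84% lay below. DESeq2 then passed 7 and limma 15 of the 22, all lower. The gene that passed in edgeR was Ccr7, the receptor that guides T cells into lymph nodes. It had 1379, 888 and 446 CPM in N+P C1, 181, 41.4, 94.6 and 274 CPM in S+P C4 replicates 1, 4, 5 and 6, and 162 and 1357 CPM in replicates 2 and 3. Replicate 3 lay within the N+P C1 range, near its highest mouse. The log2 fold change of Ccr7 was -2.59 ± 0.61 (SE, adjusted p = 0.0869) without and -1.36 ± 0.68 (SE, adjusted p = 0.552) with the 2 mice. Tcf7, which encodes TCF1, had 688, 786 and 873 CPM in N+P C1 and 97.5, 183, 286 and 546 CPM in the 4 S+P C4 mice, with 272 and 468 CPM in replicates 2 and 3, -1.34 ± 0.38 (SE, adjusted p = 0.443). Satb1, a chromatin organizer of naive T cells, had 763, 668 and 658 CPM in N+P C1, 89.9, 79.8, 169.8 and 323 CPM in the 4 S+P C4 mice and 414 and 751 CPM in replicates 2 and 3, -2.05 ± 0.52 (SE, adjusted p = 0.148) without and -1.19 ± 0.55 (SE, adjusted p = 0.495) with the 2. Il7r, the receptor for the survival cytokine IL-7, had 686, 763 and 803 CPM in N+P C1, 125, 122, 428 and 343 CPM in these 4 mice and 1035 and 616 CPM in replicates 2 and 3, and it missed the threshold in both fits. Counts of Tcf7 and Satb1 can include reads of expressed genes that overlap them.

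The 1 gene that fell with all mice was Gabrr2 (chr4:33062937-33096126), a rho subunit of GABA-gated chloride channels. It had 43.2, 14.49 and 51.7 CPM in N+P C1 and 0 counts in all 6 S+P C4 mice. Against a floor of 3 counts per sample, it was at least 264-fold lower in S+P C4 (adjusted p = 0.0349, and 0.0614 without replicates 2 and 3). It missed the threshold without S+P C4 replicate 4 or N+P C1 replicate 1 (adjusted p = 0.1095 and 0.1077), and in all 7 fits that left out 1 mouse of the 4 against 3 (0.119 to 0.2403). In the Naive mice it had 10.4 to 31.6 CPM and in the Sensitized mice 0 to 6.49 CPM.

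Ribosomal protein genes held a smaller share of raw counts in 5 of the 6 S+P C4 mice than in every N+P C1 mouse, all but replicate 3. They took 9.17% to 10.01% of raw counts in N+P C1, 4.78% to 6.26% in S+P C4 replicates 1, 4, 5 and 6, 7.79% in replicate 2 and 10.3% in replicate 3. In TMM-normalized CPM, used for all gene levels here, only replicates 1, 4, 5 and 6 were lower. Their sum was then 79216 to 109340 CPM in N+P C1 and 47418 to 61102 CPM in these 4 mice. Replicate 2 had 102339 CPM, within the N+P C1 range, and replicate 3 had 159179 CPM, above it. Of 84 genes tested, 0 passed in edgeR with all mice (DESeq2 1 lower, limma 29 lower, and 13 lower at an unadjusted p under 0.05 in edgeR), and without replicates 2 and 3 2 passed, 51 were lower at an unadjusted p under 0.05 and 55 lay below N+P C1 in all 4 mice. Over all genes tested, 6.15% were lower at that p with all mice. Without the 2 replicates 4.76% were lower at that p and 4.84% lay below. DESeq2 then passed 10 and limma 31 of the 84, all lower. The median log2 fold change was -0.29 with all mice and -0.81 without the 2. Rps4x, a protein of the small subunit, had 2478, 2468 and 2409.8 CPM in N+P C1, 911, 940.2, 1359 and 1367 CPM in the 4 S+P C4 mice and 3424 and 3463 CPM in replicates 2 and 3. The 4 mice lay below and the other 2 above every N+P C1 mouse, with a log2 fold change of -1.09 ± 0.21 (SE, adjusted p = 0.0112) without and -0.36 ± 0.31 (SE, adjusted p = 0.908) with the 2. Rps6, the small subunit protein phosphorylated by S6 kinases, fell by 0.94 ± 0.20 on the log2 scale (adjusted p = 0.0339) in the 4 against 3 mice. With all mice its adjusted p was 0.461.

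Pdcd1, the gene of the receptor used for the gate, had 68.4, 6.27 and 11.9 CPM in N+P C1, 62.4, 131, 77.9 and 46.9 CPM in S+P C4 replicates 1, 4, 5 and 6, and 31.8 and 0 CPM in replicates 2 and 3. The groups overlapped, and Pdcd1 transcripts were present in 8 of the 9 PD1- samples. Of 26 genes of inhibitory receptors and exhaustion, 0 passed in edgeR in either fit, with 4 higher and 0 lower at an unadjusted p under 0.05 with all mice and 7 and 0 without replicates 2 and 3. DESeq2 and limma each passed 3 of them with all mice, and 5 and 4 without the 2, all higher. Tigit, an inhibitory receptor, had 30.04, 9.405 and 13.9 CPM in N+P C1, 47.4, 158, 185 and 94.6 CPM in the 4 S+P C4 mice and 121 and 0.199 CPM in replicates 2 and 3, 2.79 ± 0.91 (SE, adjusted p = 0.461) without and 2.51 ± 1.08 (SE, adjusted p = 0.463) with the 2. Entpd1, the ectoenzyme CD39, had 3.52, 1.498 and 15.8 CPM in N+P C1, 141, 104, 55.4 and 70.6 CPM in the same 4 mice and 0.208 and 0.397 CPM in replicates 2 and 3, 3.71 ± 0.97 (SE, adjusted p = 0.174) without and 3.15 ± 1.35 (SE, adjusted p = 0.462) with the 2. For Entpd1 the 4 mice lay above and the other 2 below every N+P C1 mouse. The exhaustion factor Tox2 had 0 counts in N+P C1 and from 0 to 12.4 CPM in S+P C4, with 3 of the 6 mice at 0. Nt5e (CD73, by which the study split its PD1+ cells) and Izumo1r (FR4) had overlapping groups, with log2 fold changes of -0.095 ± 1.08 (SE, adjusted p = 1) and 0.65 ± 1.19 (SE, adjusted p = 1) with all mice. Both signs turned without replicates 2 and 3, to 0.39 ± 0.89 (SE, adjusted p = 1) and -0.44 ± 1.08 (SE, adjusted p = 1). Replicate 3 had 0 CPM of Nt5e, and 190.1 CPM of Izumo1r against 5.16 to 32.5 CPM in the other 5 S+P C4 mice.

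Other lists held few genes past the thresholds. Of 29 cytokine and cytokine receptor genes, Il10ra, the IL-10 receptor chain, passed without replicates 2 and 3. It had 48.9, 3.83 and 18.6 CPM in N+P C1, 182, 166, 191 and 62.3 CPM in the 4 S+P C4 mice and 78.7 and 1.09 CPM in replicates 2 and 3, 2.68 ± 0.53 (SE, adjusted p = 0.0178) without and 2.26 ± 0.79 (SE, adjusted p = 0.443) with the 2. Il18rap, a chain of the IL-18 receptor, had 57.1, 43.2 and 48.9 CPM in N+P C1 and 209 to 701 CPM in the 6 S+P C4 mice, with no overlap and an adjusted p of 0.443. Of 16 BCL2 family genes, Bcl2a1d, an anti-apoptotic member with close copies, passed without the 2 mice at 3.06 ± 0.71 (SE, adjusted p = 0.0807). With all mice its adjusted p was 0.457. Of 39 cell cycle genes, 0 passed in edgeR in either fit, with a median log2 fold change of 0.25 with all mice. At an unadjusted p under 0.05, 2 were higher with all mice (DESeq2 and limma each passed 1 as higher), and without replicates 2 and 3, 4 were higher and 1 lower (DESeq2 3 higher, limma 1 higher). Of 39 interferon-stimulated genes, 0 passed in edgeR in either fit, with a median of 0.02 with all mice. At an unadjusted p under 0.05, 1 was lower with all mice (DESeq2 passed 0, limma 1 higher and 1 lower), and 3 were higher without the 2 (DESeq2 1 higher, limma 2 higher and 1 lower). Of 20 glycolysis genes, 0 passed in edgeR with all mice (1 lower at an unadjusted p under 0.05, DESeq2 0, limma 1 higher and 1 lower), with a median of 0.16. Of 33 mitochondrial transcripts tested with all mice and 32 without the 2, 0 passed in edgeR in either fit. With all mice 0 had an unadjusted p under 0.05 (DESeq2 0, limma 1 lower) and the median was 0.56, and without the 2 mice 6 were lower at that p (DESeq2 4 lower, limma 0) and the median was -1.24.

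**Figure D3:**
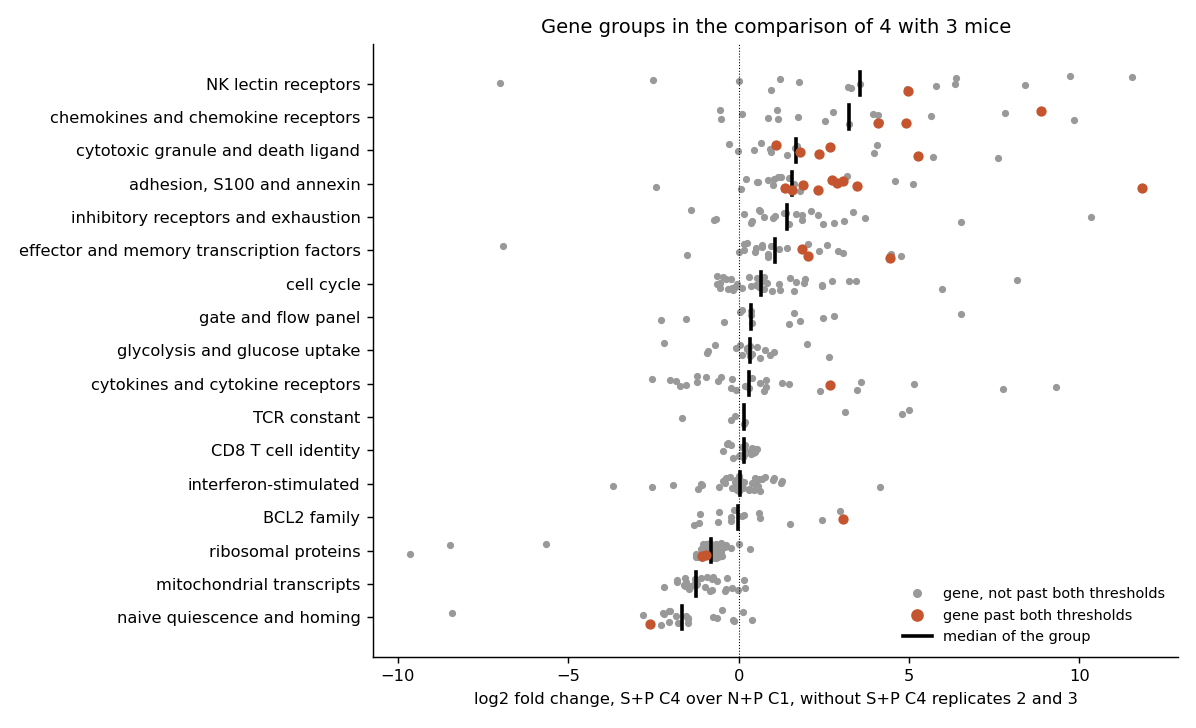
log2 fold change of S+P C4 over N+P C1 without S+P C4 replicates 2 and 3 (x axis) for each gene (points) of the gene groups other than markers of other cells (y axis), with genes past both thresholds in orange and the median of each group as a black bar. Of the groups drawn, NK lectin receptors have the highest median, 3.56, and naive quiescence and homing genes the lowest, -1.66, against 0.00 over all genes tested.

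Of the 44 genes that passed as higher without replicates 2 and 3, replicate 2 lay above every N+P C1 mouse in 34 and replicate 3 in 20, against 15.4% and 14.1% of all 19602 genes tested. The same N+P C1 mice were used to choose the 44, so these counts are a description. Replicate 3 lay below every N+P C1 mouse in 18 of the 44 (45.3% of all genes) and had at most 3 counts in 11. Slamf7, a self-ligand receptor of cytotoxic cells, had 28.3, 41.7 and 42.98 CPM in N+P C1, 152, 418, 288 and 192 CPM in the 4 S+P C4 mice and 286 and 0.397 CPM in replicates 2 and 3, 2.804 ± 0.45 (SE, adjusted p = 0.00184). Plek, which encodes the protein kinase C substrate pleckstrin, had 37.3, 13.3 and 39.2 CPM in N+P C1, 309, 259, 222 and 181 CPM in the 4 mice and 144 and 0 CPM in replicates 2 and 3, 3.02 ± 0.41 (SE, adjusted p = 2.11e-04). For both genes replicate 2 was with the other S+P C4 mice and replicate 3 near or at 0, and with all mice the adjusted p was 0.443 for Slamf7 and 0.443 for Plek.

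The other genes that passed as higher in the 4 against 3 mice had log2 fold changes from 0.93 (Calm2, a calmodulin gene) to 6.03 (Myadm). Cd48, a ligand of the receptor 2B4, had 268, 211 and 185 CPM in N+P C1 and 369.6 to 1799.5 CPM in all 6 S+P C4 mice, with no overlap, 1.47 ± 0.32 (SE, adjusted p = 0.0512). Cd82, a tetraspanin, rose by 1.34 ± 0.30 (adjusted p = 0.0563), and Racgap1, a GTPase-activating protein of cytokinesis, by 1.82 ± 0.37 (adjusted p = 0.0228). Sytl2, a synaptotagmin-like protein of granule docking, had 8.59, 4.46 and 1.61 CPM in N+P C1 and 118, 93.6, 93.5 and 36.7 CPM in the 4 mice, 4.14 ± 0.94 (SE, adjusted p = 0.0656).

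**Figure D4:**
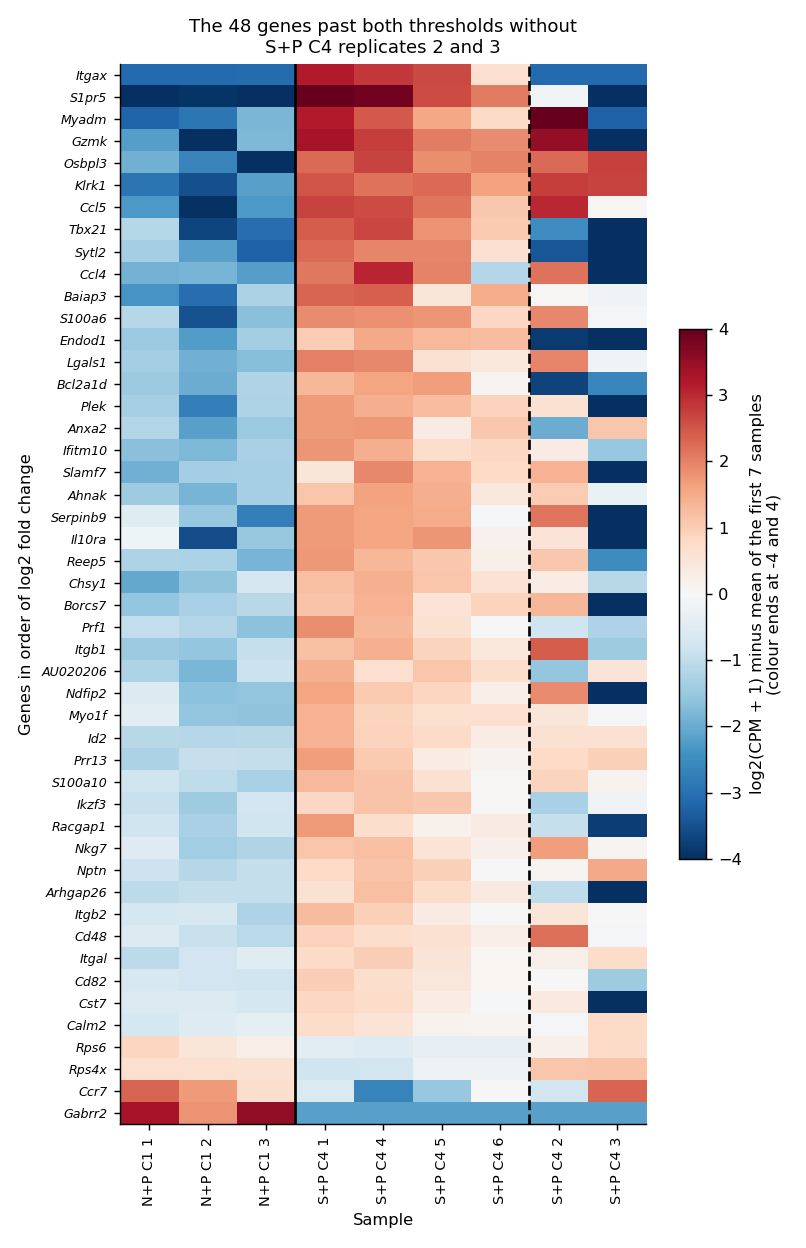
Level of the 48 genes past both thresholds without S+P C4 replicates 2 and 3 (y axis, in order of log2 fold change), as log2(CPM + 1) minus the mean of the 7 samples used, in each sample (x axis), with replicates 2 and 3 in the last columns. Replicate 2 lies above every N+P C1 mouse for 34 of the 44 higher genes and replicate 3 for 20.

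The 4 mice also differed among themselves. Over the 44 genes, replicate 6 was the lowest of the 4 in 34, replicate 1 the highest in 26 and replicate 4 in 16. Over the 22 genes of naive quiescence and homing, replicate 6 was the highest in 16. Ccl5 shows the spread, with 5775 CPM in replicate 6 and 17469.8 CPM in replicate 1.

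The same contrast was available without pregnancy, in TFGS of Sensitized mice (graft, no pregnancy, n = 4) and Naive mice (n = 3). No sample belongs to both comparisons, but both were tested in the same fit to all groups, with a shared estimate of each gene's spread. Leaving out S+P C4 replicates 2 and 3 alone moved the genes passed in Sensitized against Naive from 30 to 77. The overlaps and p-values below are therefore not independent between the comparisons. There 30 genes passed, all higher in Sensitized (0.153% of genes tested). Of the 12 genes that passed in S+P C4 against N+P C1, 9 were among them (75% of the 12 and 30% of the 30), and without replicates 2 and 3 29 were shared (60.4% of 48 and 37.7% of the 77 that the Sensitized comparison then passed). All 30 had a positive log2 fold change and an unadjusted p under 0.05 in S+P C4 against N+P C1, against 3.08% of all genes tested, with a median of 2.55 and -0.04 over all genes. In Sensitized against Naive, whose values chose them, their median was 4.13. Itgal, S100a10 and Gabrr2 passed only in S+P C4 against N+P C1, but the difference between the comparisons was not past the thresholds for them.

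Several of the 30 genes were detected in N+P C1, whose labels give a PD1- gate, and nearly absent in Naive mice, whose labels give none. Gzmk had 0 to 0.151 CPM in Naive, 0.0348 to 17.9 CPM in N+P C1 and 94.8 to 218 CPM in Sensitized mice. Zeb2, a transcription factor that promotes terminal effector differentiation, had 0 to 0.166 CPM in Naive and 5.82 to 16.6 CPM in N+P C1, and Klrc1 had 0.113 to 3.71 and 7.695 to 56.7 CPM. The test of the difference between the 2 comparisons passed 0 genes in edgeR with all mice (1261 at an unadjusted p under 0.05, DESeq2 737, limma 31). Without replicates 2 and 3 it passed 1 (0.00510%), the T cell receptor gamma constant gene Trgc2, with a difference of 12.43 on the log2 scale (adjusted p = 0.0496). It joins a log2 fold change of 4.800 in PD1- cells and one of -7.61 in Sensitized against Naive, and neither passed by itself (adjusted p = 0.261 without the 2 and 0.214 in the fit with all mice). Trgc2 had 3.95 to 6.35 CPM in Naive and 0 to 0.0519 CPM in Sensitized mice. It had 4.07, 0 and 1.98 CPM in N+P C1, 41.7, 69.5, 37 and 75.2 CPM in the 4 S+P C4 mice, and 1374 and 0.298 CPM in replicates 2 and 3. Trdc, the delta constant gene, was at 6.09 to 9.67 CPM in N+P C1 and 0 to 4.79 CPM in S+P C4, so the groups lay in the opposite order for Trdc, and gamma constant genes have close copies. The 7 gamma delta T cell markers found summed to 10.9 to 19.4 CPM in N+P C1 and 0.298 to 1374 CPM in S+P C4, the highest in replicate 2, and Il23r was at 0 in all 9. Their part in this result was not tested.

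**Figure D5:**
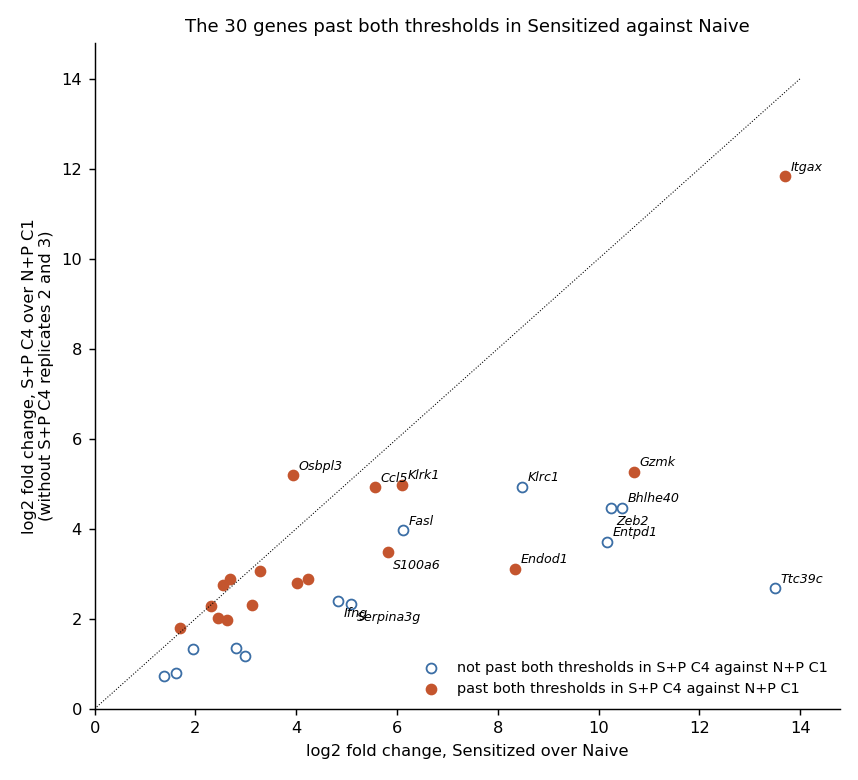
log2 fold change of the 30 genes past both thresholds in Sensitized against Naive (x axis) and of the same genes in S+P C4 against N+P C1 without S+P C4 replicates 2 and 3 (y axis), 1 point per gene, filled where the gene passed in both, with a dotted line of equal values. All 30 lie above 0 on both axes, and 17 are filled.

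The comparison was also set beside that in the PD1+CD73+ subset, S+P C5 against N+P C5, in which 0 genes passed in edgeR (1155 at an unadjusted p under 0.05, DESeq2 757, limma 323). The test of the difference passed 0 genes with all mice in edgeR (1173 at an unadjusted p under 0.05, DESeq2 754, limma 70) and 4 without replicates 2 and 3 (0.0204%). These were Itgb1, Ahnak, Itgax and Osbpl3, each with the larger log2 fold change in PD1- cells. The values in PD1+CD73+ cells are from the fit with all mice and the differences from the fit without the 2. Itgb1 had a log2 fold change of 2.31 in PD1- and -0.27 in PD1+CD73+ cells, a difference of 2.59 (adjusted p = 0.0157). Ahnak had 2.75 and -0.04, a difference of 2.81 (adjusted p = 0.0332). The differences of Itgax and Osbpl3 were 10.93 (adjusted p = 0.0466) and 3.88 (adjusted p = 0.0988). Mean levels of Itgb1, Ahnak, Itgax and Osbpl3 were 127, 146, 0.00957 and 4.54 CPM for N+P C1. N+P C5 had more of each, with 1082, 417, 6.35 and 29.3 CPM. S+P C5 had 897.5, 404, 11.9 and 73.1 CPM, against 632, 980, 50.5 and 164 CPM for S+P C4 without replicates 2 and 3. The N+P C1 value of Itgax rests on 1 count over the 3 mice. The reason for the higher N+P C5 levels was not tested. Per the study, the TFGS of each group were sorted into these subsets, so samples of the 2 subsets can come from the same mice. Whether equally numbered samples came from 1 mouse is not given in the sources used here. The fit did not pair them, so its p-values for the difference take no account of shared mice.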

How the data were processed

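Deposited gene counts of 56 libraries were used; per the study's methods the authors trimmed reads with cutadapt 3.4, aligned them to GRCm39 with STAR 2.6.1b, removed reads without a unique place and counted them with featureCounts 2.0.1. The strand setting and annotation release are not given in the sources used here, so reads of overlapping genes cannot be told apart. Counts of technical libraries were summed per mouse and subset, which gave 30 samples. A library with the same counts under S+P C4 replicate 1 and a Naive mouse was left out of both, and nearly identical libraries of S+P C7 replicates 1 and 2 were averaged as 1 sample. Cells came from individual mice per the study's methods, and the labels number more S+P C4 replicates (6) than the study's legend gives mice for any group. GENCODE M39 (GRCm39) placed 54749 of 55359 genes.

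The main test was edgeR 4.0.16 (R 4.3.3) quasi-likelihood, TMM, filterByExpr with a minimum count of 10, on all 7 groups with group as the only term. The study's methods used DESeq2 and gave the thresholds, 0.1 for the adjusted p and 0.9 for the size of the log2 fold change. DESeq2 1.42.0 and limma 3.58.1 (voom with sample quality weights) were alternatives, as were normalization, filters, samples and single mice left out. Exact permutation tests used scipy 1.17.1, figures matplotlib 3.10.9. The fit was tested on simulated data. Genes named are the 15 per direction with the smallest adjusted p and no overlap (10 without replicates 2 and 3), those past the thresholds in any list and the lists' smallest p up to 4, the 3 leading genes per direction of each difference, and 8 gate markers; genes named from the Sensitized comparison (Zeb2) were chosen after their values were seen. Some genes that this rule names are not reported here. Members and lists were chosen with earlier results of these data known. Arntl, Ddx58 and Cd163l1 were not found. Intervals and floors cover counting error only. The 2 groups are different mice, so replicate numbers do not pair them. Correlations of deviations from the group means between equally numbered samples were 0.0144, 0.00537 and 0.000534. Each rests on 1 pair of samples and cannot show whether a number stands for a shared sort.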

Additional observations from a re-analysis of the deposited data

Results flagged for a closer look

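Among 38 genes and 5 library values examined in the 6 S+P C4 mice, 3 had 1 mouse far from the others, and each time it was replicate 3. Chance flags about 1 in 20 such groups. Its mitochondrial share was 24.3%, against 2.04% to 7.78% in the other 5 mice. Its Ccr7 level was 1357 CPM, against 41.4 to 274 CPM, and its Izumo1r level, for the folate receptor FR4, was 190.1 CPM, against 5.16 to 32.5 CPM.

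Without S+P C4 replicates 2 and 3, the sensitized minus naive difference in PD1- cells differed from another comparison for 5 genes by a test of the difference itself in edgeR. From Sensitized minus Naive it differed for Trgc2 by 12.43 on the log2 scale (adjusted p = 0.0496). From S+P C5 minus N+P C5 it differed for Itgb1 by 2.59 (adjusted p = 0.0157), Ahnak by 2.81 (adjusted p = 0.0332), Itgax by 10.93 (adjusted p = 0.0466) and Osbpl3 by 3.88 (adjusted p = 0.0988). With all mice 0 genes differed in edgeR in either case (1261 and 1173 at an unadjusted p under 0.05, DESeq2 737 and 754, limma 31 and 70).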

How the results depend on the processing

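The 12 genes past the thresholds became 48 without S+P C4 replicates 2 and 3, 32 without replicates 1, 2 and 3 (chosen after seeing the data, as were the single mice left out of the 4 against 3 comparison and limma in it), 1040 in DESeq2 (693 higher, 347 lower), 1194 in DESeq2 without the 2 replicates (761 and 433), 825 in limma (333 and 492), 4 with no filter, 27 at a mean of at least 10 CPM, 6 with only the 2 groups compared and 117 with these groups and without the 2 replicates. RLE normalization gave 13, library size only 10, the identical library kept 10, and an adjusted p under 0.05 11. Single mice left out gave 6 to 34 genes, with 6 without N+P C1 replicate 1, 7 without N+P C1 replicate 2, and 19, 34 and 21 without S+P C4 replicates 2, 3 and 6. The cause was not tested. The 48 genes became 1194 in DESeq2, 117 with only the 2 groups and 783 in limma (360 and 423), and 18 to 60 with single mice left out, of which N+P C1 replicates 1, 2 and 3 gave 25, 18 and 26 and S+P C4 replicates 1 and 4 gave 32 and 29. The difference from Sensitized against Naive passed 1 gene without the 2 replicates, 737 in DESeq2 and 0 to 1 with single mice left out (1 without S+P C4 replicate 3), and that from S+P C5 against N+P C5 4, 754 and 0 to 2 (2 without replicate 3). The difference in detected genes ranged from -4484 to -2491 with single mice left out, with an exact permutation p of 0.0357 without S+P C4 replicate 5.

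Of 2221 values of 105 named genes under alternatives, 1964 stayed on the same side of the thresholds (47 of these, in 22 genes and past the thresholds in neither fit, with the other sign), 205 moved past them, 51 lost them and 1 reversed: mt-Rnr2, the mitochondrial 16S rRNA, at -1.15 in limma (0.95 in edgeR). The median log2 fold change of all genes was -0.04 with TMM, 0.0 with RLE and -0.10 with library size only. The replicate block was run on the 2 groups compared, where 6 genes passed without it (6 higher) and 12 with it (9 higher, 3 lower), and 4 of each were among the 12 of the fit to all groups. The numbers are shared without pairing the mice.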
